A study of Mus musculus with 6 samples.

Results

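A set of 10 genes that young neurons use to build and extend their processes was followed through mouse neurospheres with and without a conditional knockout of Ash2l. The genes were Dcx, Gap43, Stmn1, Stmn2, Stmn3, Stmn4, Map2, Mapt, Elavl3 and Elavl4, taken by name from a deposited table of 54532 genes. All 10 were found once in the table, and all 10 were among the 16606 genes with enough reads to be tested. RNA came from primary neurospheres, floating colonies grown from neural progenitors of C57BL/6 embryos at E14.5. They were taken after 6 days in medium with EGF and bFGF at 20 ng/ml each and B27 at 2%. There were 3 wild type libraries (WT 3, WT 6 and WT 7, by the submitters' numbers) and 3 Ash2l conditional knockout libraries (KO 1, KO 2 and KO 3). In the knockout a D6-Cre transgene, active in the dorsal forebrain, removes Ash2l, which encodes a core subunit of the COMPASS complexes that methylate lysine 4 of histone H3. The labels give no Cre or floxed allele for the WT embryos, leave it unclear whether dorsal cortex or the lateral ventricular wall was dissected, and do not tell whether each library was a separate embryo or culture. The p-values therefore measure only library to library spread, part of which may be technical. Errors after ± are SDs over the n = 3 libraries of a group. As RNA was taken from whole spheres, more neurons in a sphere and more RNA per neuron cannot be told apart.

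A newborn neuron leaves the cell cycle, extends neurites tipped by growth cones and rebuilds its microtubules. Stathmins bind tubulin and promote the disassembly of microtubules, whereas doublecortin (Dcx), MAP2 and tau (Mapt) bind and stabilise them. GAP43 is a membrane protein of growth cones, and ELAVL3 and ELAVL4 are RNA-binding proteins that stabilise and process neuronal transcripts. Most of these genes serve as markers of immature neurons, but Stmn1 is also expressed by dividing cells.

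Start-site windows from RefSeq (build GRCm38.p6, 250 bases before to 50 bases after an annotated start) matched 5 of the 10 genes, namely Dcx, Stmn3, Map2, Elavl3 and Elavl4. The others, Gap43, Stmn1, Stmn2, Stmn4 and Mapt, had no entry. Upstream bases of 4 are shown because they set a gene whose KO level was called higher (Stmn3) and a pair whose WT 6 and WT 7 levels also lay below KO (Dcx and Elavl3) beside the gene that showed no such difference (Map2). Capitals mark CpG dinucleotides, and each run stops at the RefSeq start or the deposited 5′ end, whichever lies further upstream.
Stmn3, chr2:181314501-181314750, minus strand: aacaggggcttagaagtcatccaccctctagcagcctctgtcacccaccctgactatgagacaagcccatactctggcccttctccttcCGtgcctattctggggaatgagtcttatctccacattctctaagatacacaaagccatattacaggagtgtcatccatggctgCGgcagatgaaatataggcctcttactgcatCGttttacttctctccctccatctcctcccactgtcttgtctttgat
Dcx, chrX:143933312-143933469, minus strand: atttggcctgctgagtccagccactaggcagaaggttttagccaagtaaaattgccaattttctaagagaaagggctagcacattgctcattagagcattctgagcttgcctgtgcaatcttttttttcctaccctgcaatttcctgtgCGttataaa
Elavl3, chr9:22052024-22052273, minus strand: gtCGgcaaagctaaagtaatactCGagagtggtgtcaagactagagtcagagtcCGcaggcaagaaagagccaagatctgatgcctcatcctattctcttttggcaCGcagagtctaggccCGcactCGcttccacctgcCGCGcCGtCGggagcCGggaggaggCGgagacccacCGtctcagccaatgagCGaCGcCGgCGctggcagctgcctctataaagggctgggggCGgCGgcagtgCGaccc
Map2, chr1:66175079-66175272, plus strand: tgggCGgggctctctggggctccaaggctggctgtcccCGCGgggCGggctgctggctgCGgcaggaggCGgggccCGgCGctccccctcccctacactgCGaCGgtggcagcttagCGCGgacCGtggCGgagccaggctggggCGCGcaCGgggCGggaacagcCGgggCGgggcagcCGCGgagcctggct
Over the whole window of 300 bases, Map2 held 37 CpG dinucleotides and Elavl3 held 29. Stmn3 held 6 and Dcx 3, against a median of 7 over 32851 windows. The window at the deposited 5′ end of Elavl4 held 23. Among the 4 genes with positive estimates the CpG count thus ran from low to high, and the window richest in CpG belonged to Map2. Letters of the GC box (GGGCGG, either strand) occurred in the Map2 and Elavl3 windows and in 35.7% of all windows. The E-box letters CAGATG were found in the window of Stmn3, in 3 windows at downstream starts of Elavl4 and in 17.2% of all windows. The E-box letters CAGCTG were in the Elavl3 window, in 2 of those Elavl4 windows and in 16.3% of all. CCAAT was in the windows of Elavl3 and Dcx, in the 3 downstream ones of Elavl4 and in 37.4%, and TATAAA in those of Dcx and Elavl3 and in 13.6%. All were sought on both strands. These are matches of letters only.

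Library totals were between 16764480 and 21983659 counts, so that 3 reads were worth 0.142 to 0.173 CPM (counts scaled to a common library size, with TMM factors). The members, at 19.4 CPM or more in every library, lay far above that limit. Ash2l was at 116 CPM in WT 3, 113 CPM in WT 6 and 109 CPM in WT 7 and at 86.3 CPM in KO 1, 99.3 CPM in KO 2 and 102 CPM in KO 3, without overlap, but the difference was not called (log2 fold change -0.24, SE 0.10, adjusted p = 0.119, edgeR). The count covers the whole gene, so the loss of single exons cannot be read from it. Why Ash2l reads remained in KO was not tested. WT 3 stood apart from the other WT libraries. On principal component 1 of log2 CPM, with 69.9% of the variance, it was at -25.5, against -81.7 and -85.7 for WT 6 and WT 7 and 53.5 to 76.8 for KO. Progenitor genes were present in all libraries, with Sox2 between 92.9 and 286 FPKM (counts scaled by gene length and library total). The dorsal factor Emx1 was at 8.81 FPKM in WT 3, at 1.17 and 0.96 FPKM in WT 6 and WT 7, and between 6.51 and 10.9 FPKM in KO.

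Of the 10 genes, 3 rose in KO: Gap43, Stmn1 and Stmn3 (edgeR quasi-likelihood test, Benjamini-Hochberg adjusted p under 0.05 over all genes tested). None fell by this test. At an unadjusted p under 0.05 the counts were 5 higher and 0 lower. The share of all genes at that threshold was not taken, so these counts cannot be read as a result about the members. With DESeq2 (adjusted) the counts were also 5 and 0, where 2877 and 2712 of 19749 genes were called. In the adjusted edgeR fit, 13.5% of all genes tested were called higher and 15.5% lower. The estimate was positive for 9 of the 10, and the median log2 fold change was 1.06, against 0.0019 over all genes tested. KO libraries lay above every WT library for 6 of the 10, namely Gap43, Stmn1, Stmn2, Stmn3, Mapt and Elavl4, and below for 0. Over all genes tested, 23.5% had every KO library above WT and 25.2% had every one below.

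The count of 3 depended on single libraries. Without WT 3 it was 8 of 10, every member but Elavl4 and Map2, with a median log2 fold change of 1.58, and in that fit 20.2% of all genes were called higher and 18.1% lower. Without WT 6, WT 7, KO 1, KO 2 or KO 3 it was 0 each time, where 6.04%, 6.84%, 8.68%, 7.09% and 12.5% of all genes were called higher, in that order. Over the 6 fits that each left out 1 library, the log2 fold change ran from 1.38 to 2.38 for Gap43, from 1.06 to 1.93 for Stmn1 and from 0.69 to 1.30 for Stmn3. Levels of WT 6 and WT 7 lay below every KO library for 9 of the 10 genes, the exception being Map2, and for 32.4% of all genes tested. Within WT, WT 3 was the highest library for 9 of the 10, and leaving it out raised the estimate of each of these 9. WT 3 reached or passed the lowest KO library for Dcx, Stmn4, Elavl3 and Map2. Within KO, KO 1 was the highest library for 9 of the 10, and KO 2 was the lowest for 8.

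**Figure D1:**
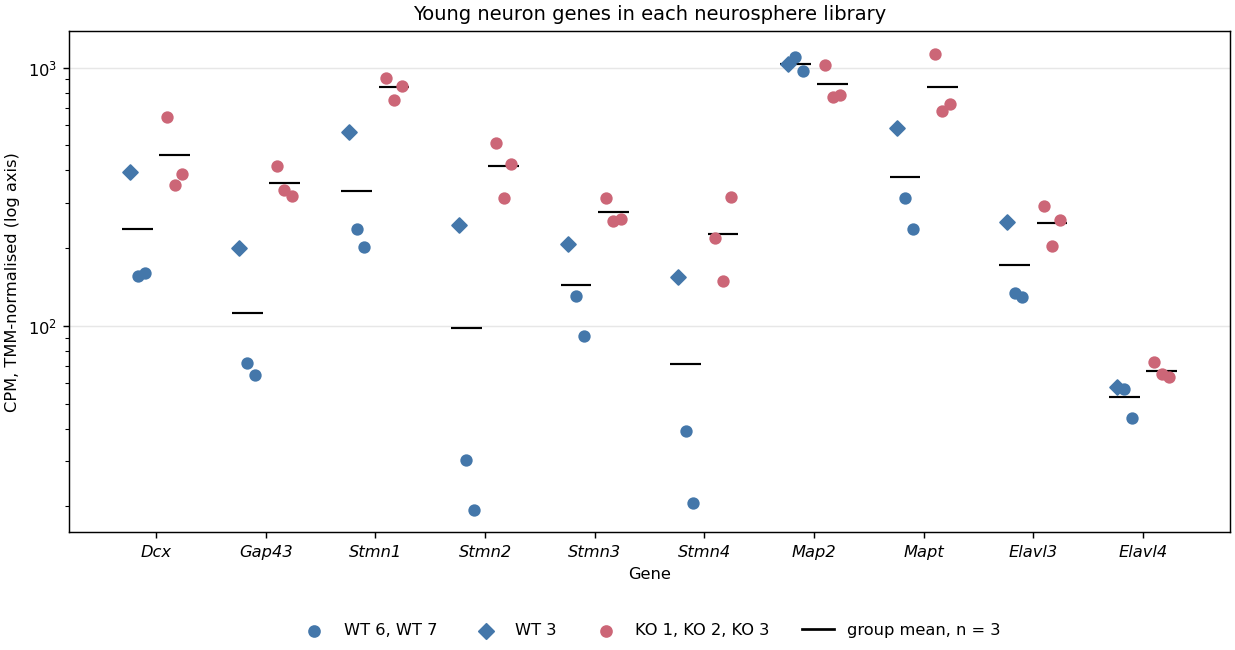
Level of each gene in CPM on a log axis (1 point per library, n = 3 per group), with WT in blue, KO in red and WT 3 as diamonds, and bars at the group means. The points of WT 6 and WT 7 lie under all KO points for 9 of the 10 genes (32.4% of all genes tested), WT 3 lies higher than both for those 9, and Map2 stays between 771 and 1095 CPM throughout.

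Gap43 (ENSMUSG00000047261, chromosome 16 from 42248442 to 42340651 on mm10, minus strand) encodes the growth cone protein that takes part in axon extension and regeneration. It was at 201 CPM in WT 3, 71.7 CPM in WT 6 and 64.6 CPM in WT 7 and at 416 CPM in KO 1, 335 CPM in KO 2 and 317 CPM in KO 3. The groups did not overlap, and even WT 3 stayed below the lowest KO library. Mean levels were 112 ± 76.5 CPM in WT and 356 ± 52.4 CPM in KO, 3.17-fold higher in KO. The log2 fold change was 1.67 (SE 0.44, adjusted p = 0.0296, edgeR). Without WT 3 it was 2.38 (SE 0.16, adjusted p = 0.000137, edgeR). The call ended when any other library was left out (highest adjusted p = 0.0942, edgeR).

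Of the 4 stathmins, Stmn1 and Stmn3 rose, and Stmn2 and Stmn4 had larger estimates with larger errors. Stmn1 (ENSMUSG00000028832, chromosome 4 from 134468320 to 134473843, plus strand) encodes the cytosolic stathmin, also called oncoprotein 18, whose activity is switched off by phosphorylation in mitosis. Its levels were 563 CPM in WT 3, 236 CPM in WT 6 and 202 CPM in WT 7, and 915 CPM in KO 1, 751 CPM in KO 2 and 846 CPM in KO 3. All KO libraries lay above all WT libraries, and the spread was smaller within KO (range 0.28 on the log2 scale) than within WT (1.48). It rose 2.51-fold, by a log2 fold change of 1.33 (SE 0.38, adjusted p = 0.0405, edgeR), and by 1.93 without WT 3 (adjusted p = 0.000261, edgeR). Its call ended when any other library was left out (highest adjusted p = 0.127, edgeR). All 8 cycling cell markers, among them Mki67 and Top2a, were called higher in KO too (13.5% of all genes tested). They had a summed level of 50.4 to 76.6 FPKM in WT and 349 to 453 FPKM in KO. Their part in the level of Stmn1 was not tested.

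Stmn3 (ENSMUSG00000027581, chromosome 2 from 181306459 to 181314500, minus strand), a membrane-anchored stathmin of neurons, was at 207 CPM in WT 3, 131 CPM in WT 6 and 91.6 CPM in WT 7. In KO 1, KO 2 and KO 3 it was at 311, 254 and 259 CPM. The groups did not overlap. Group means were 143 ± 58.9 CPM in WT and 275 ± 31.6 CPM in KO, a 1.92-fold rise (log2 fold change 0.94, SE 0.28, adjusted p = 0.0457, edgeR). It was the smallest change of the 3 genes that were called, and the call ended when any library but WT 3 was left out (highest adjusted p = 0.139, edgeR).

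Stmn2 (ENSMUSG00000027500, chromosome 3 from 8509360 to 8561606, plus strand), also known as SCG10, is a membrane-anchored stathmin of growth cones. It had the widest spread of the 10 genes, with 245 CPM in WT 3 but 30.3 and 19.4 CPM in WT 6 and WT 7. KO 1, KO 2 and KO 3 stood at 508, 313 and 422 CPM, all above WT 3. The mean ratio of 4.22 was the highest of the 10, yet the call was not made (log2 fold change 2.08, SE 0.91, adjusted p = 0.124, edgeR). Without WT 3 the log2 fold change was 4.06 (SE 0.30, adjusted p = 0.000171, edgeR). Stmn4 (ENSMUSG00000022044, chromosome 14 from 66344296 to 66361680, plus strand), a stathmin of neurons, was at 154 CPM in WT 3, 39.1 CPM in WT 6 and 20.5 CPM in WT 7. In KO 1, KO 2 and KO 3 it was at 219, 149 and 315 CPM, and KO 2 lay just under WT 3. It was not called (log2 fold change 1.68, SE 0.71, adjusted p = 0.115, edgeR), and stood at 2.93 without WT 3 (adjusted p = 0.00173, edgeR).

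On the FPKM scale, which allows levels of genes of different length to be set side by side, the 4 stathmins together summed to 609 FPKM in WT 3 and to 253 and 192 FPKM in WT 6 and WT 7. In KO 1, KO 2 and KO 3 the sum was 988, 761 and 914 FPKM. Stmn1 made up 49.3 ± 3.05% of this sum in WT and 50.2 ± 1.89% in KO (exact permutation p = 0.8). Stmn3 held 38.1 ± 6.87% in WT and 27.9 ± 2.48% in KO, and Stmn2 held 3.69 ± 3.12% and 8.42 ± 1.02%, both without overlap between the groups. For the shares of Stmn3 and Stmn2 the exact two-sided permutation test gave p = 0.1, the smallest that 3 against 3 libraries allow, and an adjusted p of 0.2 over the 4 shares. In WT 3 the shares of Stmn2 and Stmn3 were 7.29% and 30.4%, nearer to KO than to the 2.05% and 43.6% of WT 6. Stmn4 held 8.84 ± 4.15% in WT and 13.5 ± 4.06% in KO (exact permutation p = 0.3, adjusted p = 0.4).

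**Figure D2:**
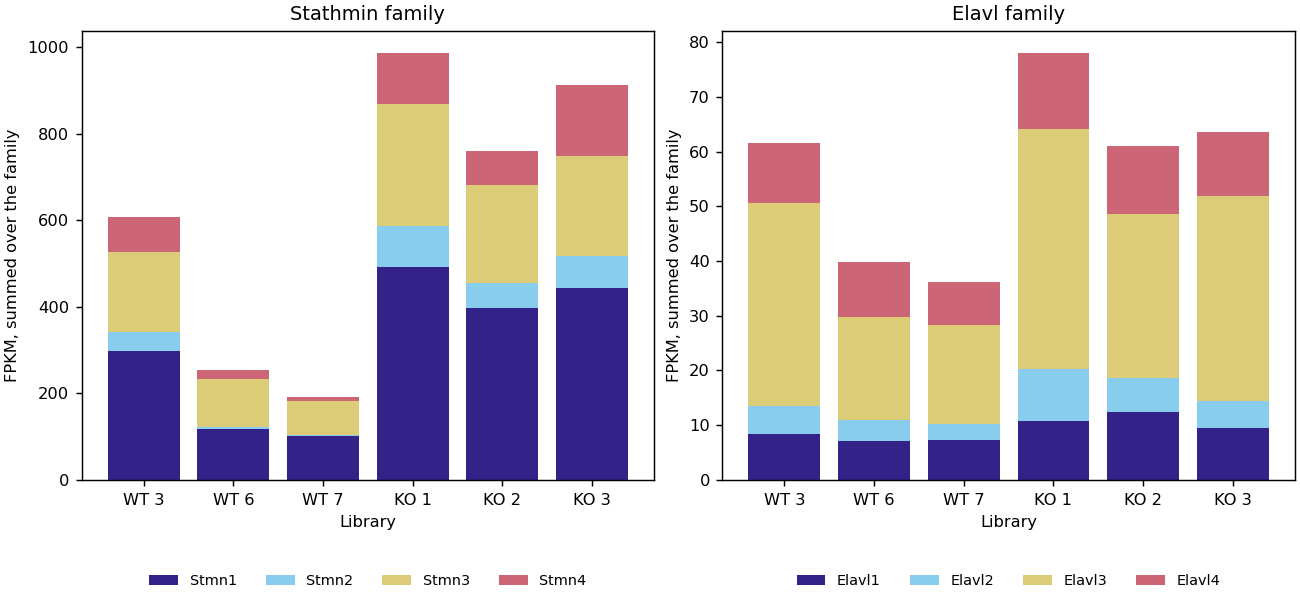
Summed FPKM of the stathmin family (left) and the Elavl family (right) in each of the 6 libraries, with each bar split by gene. Stmn1 fills close to 50% of every stathmin bar (46.6% to 52.6%), while the Stmn2 segment is thin in WT 6 and WT 7, at 2.05% and 1.73%. Elavl3 is the largest Elavl segment in all 6 libraries.

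None of the 3 genes for microtubule-binding proteins was called, with positive estimates for Mapt and Dcx and a negative one for Map2. Mapt (ENSMUSG00000018411, chromosome 11 from 104231390 to 104332090, plus strand) encodes tau, which is enriched in axons. It measured 585 CPM in WT 3, 314 CPM in WT 6 and 237 CPM in WT 7 and 1129 CPM in KO 1, 681 CPM in KO 2 and 720.4 CPM in KO 3. The groups did not overlap, but the difference just missed the threshold (log2 fold change 1.16, SE 0.37, adjusted p = 0.0527, edgeR). Mapt passed under 7 of 14 other settings, among them DESeq2, limma-voom and the fit without WT 3 (1.61, adjusted p = 0.00363, edgeR).

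Dcx (ENSMUSG00000031285, X chromosome from 143855842 to 143933311, minus strand), whose product binds microtubules in migrating neurons, was at 393 CPM in WT 3, 156 CPM in WT 6 and 159.9 CPM in WT 7. KO 1 had 641 CPM, whereas KO 2 and KO 3 had 352 and 388 CPM, both below WT 3. Dcx therefore overlapped between the groups and was not called (log2 fold change 0.96, SE 0.41, adjusted p = 0.12, edgeR). Its log2 fold change without WT 3 was 1.54 (SE 0.27, adjusted p = 0.0045, edgeR).

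Map2 (ENSMUSG00000015222, chromosome 1 from 66175273 to 66442583, plus strand), which encodes the microtubule-associated protein of dendrites and cell bodies, was the one member with a negative estimate. It was at 1035 CPM in WT 3, 1095 CPM in WT 6 and 969 CPM in WT 7 and at 1025 CPM in KO 1, 771 CPM in KO 2 and 783 CPM in KO 3. KO 1 lay among the WT libraries, and the other two KO libraries lay below them. The log2 fold change was -0.26 (SE 0.16, adjusted p = 0.238, edgeR), and -0.27 without WT 3. Map2 was also the member with the smallest range within WT, 0.18 on the log2 scale, against 3.65 for Stmn2. As the table counts whole genes, Map2 transcript forms cannot be told apart here.

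The ratio of Mapt to Map2 on the FPKM scale, a comparison chosen after the values were seen, was 1.23, 0.626 and 0.534 in WT 3, WT 6 and WT 7. It was 2.40, 1.93 and 2.01 in KO 1, KO 2 and KO 3, with means of 0.798 ± 0.38 in WT and 2.11 ± 0.255 in KO. Map2 was thus the higher of the pair in WT 6 and WT 7 and Mapt in the other 4 libraries (exact two-sided permutation p = 0.1 for the ratio, the smallest possible).

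Both Elavl genes had small estimates. Elavl3 (ENSMUSG00000003410, chromosome 9 from 22015005 to 22052023, minus strand), also called HuC, was at 253 CPM in WT 3, 134 CPM in WT 6 and 129 CPM in WT 7 and at 292 CPM in KO 1, 204 CPM in KO 2 and 256 CPM in KO 3. WT 3 lay among the KO libraries. The difference was not called (log2 fold change 0.54, SE 0.28, adjusted p = 0.181, edgeR), and stood at 0.92 without WT 3 (adjusted p = 0.00524, edgeR). Elavl4 (ENSMUSG00000028546, chromosome 4 from 110203722 to 110351909, minus strand), or HuD, was at 57.8 CPM in WT 3, 56.8 CPM in WT 6 and 44.1 CPM in WT 7 and at 72.4 CPM in KO 1, 65.3 CPM in KO 2 and 63.3 CPM in KO 3. The groups did not overlap, though they were close, and Elavl4 was not called (log2 fold change 0.34, SE 0.14, adjusted p = 0.0982, edgeR). Unlike the other members apart from Map2, it did not pass without WT 3 either (0.41, adjusted p = 0.0646, edgeR).

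The relatives of these genes give the family context. Elavl1 (HuR), the member found in most cell types, was at 85.2 CPM in WT 3, 77.4 CPM in WT 6 and 79.5 CPM in WT 7 and at 108 CPM in KO 1, 126 CPM in KO 2 and 97.9 CPM in KO 3. It rose (log2 fold change 0.46, SE 0.12, adjusted p = 0.0298, edgeR), a call that ended without WT 6, WT 7, KO 1 or KO 2 (highest adjusted p = 0.118). Elavl2, at 33.3 ± 9.13 CPM in WT against 56 ± 18.7 CPM in KO, was not called (0.75, SE 0.29, adjusted p = 0.0901, edgeR). Within the summed FPKM of the 4 Elavl genes, Elavl3 made up 52.5 ± 7.03% in WT and 54.8 ± 4.82% in KO, and Elavl4 21.6 ± 3.87% and 18.9 ± 1.23%. Neither share differed beyond its spread (exact permutation p = 0.8 and 0.4, adjusted p = 0.9 for both). Reads of Elavl1 may be shared with Ccl25, an overlapping gene on the other strand with 16.3% of its mean count. No gene overlapping a member had more than 0.085% of that member's mean count.

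**Figure D3:**
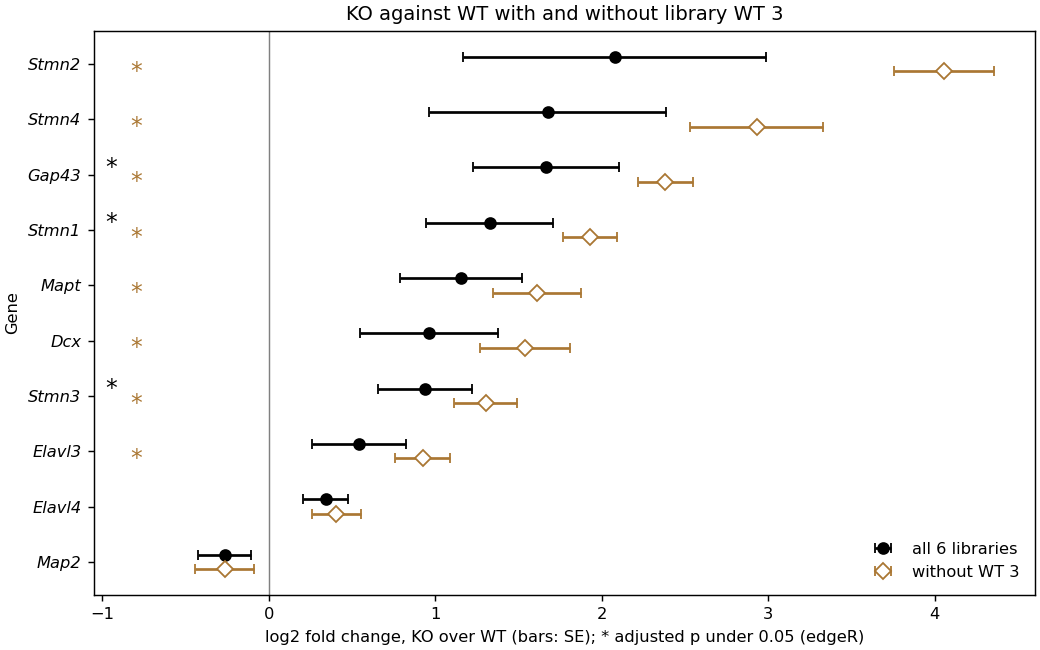
Log2 fold change of KO over WT with its SE for each of the 10 genes, from all 6 libraries (black circles) and without WT 3 (open diamonds), and asterisks where the edgeR adjusted p was under 0.05. With all libraries 3 genes carry an asterisk (13.5% of all genes tested were called higher), and without WT 3 there are 8 (20.2%). The fits without WT 6, WT 7, KO 1, KO 2 or KO 3, not drawn, each called 0 of the 10 higher. Map2 keeps the same small negative estimate in both fits shown (-0.26 and -0.27).

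Ordered by level per length, Stmn1 came before Stmn3 in each of the 6 libraries. Gap43 was next in WT 3 and in KO, whereas Map2 lay above it in WT 6 and WT 7. In KO, Stmn1 averaged 444 ± 47.6 FPKM, apart from Stmn3 at 247 ± 31.7 FPKM. The ranges of Stmn3 and Gap43 (239 ± 38.6 FPKM) overlapped. Below their ranges came Stmn4, Mapt, Stmn2, Map2, Dcx and Elavl3, each overlapping its neighbour, and Elavl4 was last at 12.7 ± 1.09 FPKM, apart from Elavl3. In WT the order of the means was Stmn1, Stmn3, Gap43, Map2, Mapt, Stmn4, Elavl3, Dcx, Stmn2 and Elavl4, and every neighbouring pair overlapped. Map2 averaged 61.4 ± 4.2 FPKM in WT and 53.4 ± 9.64 FPKM in KO. Within libraries it stood above Mapt, Stmn4 and Stmn2 in WT 6 and WT 7, above Stmn2 alone of these in WT 3, and below all 3 in each KO library. Stmn2 averaged 17.6 ± 23.2 FPKM in WT, with 44.3 FPKM in WT 3 against 5.19 and 3.33 FPKM in WT 6 and WT 7, and 75.5 ± 18.5 FPKM in KO.

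Calls among other genes of neurite growth went in both directions. Of 24 growth cone and axon growth genes, 5 rose and 5 fell, with a median log2 fold change of 0.32. Over all genes tested, 13.5% were called higher and 15.5% lower. Without WT 3 the counts were 12 and 5, where 20.2% of all genes were called higher and 18.1% lower. Nrn1, which encodes the secreted or membrane-bound neuritin, rose (1.80, SE 0.29, adjusted p = 0.00618, edgeR), although Fars2 on the other strand overlaps it with 143% of its mean count, so its reads are uncertain. The other 4 that rose were named after their values were seen, with adjusted p between 0.0336 and 0.0484 (edgeR). They were Gprin1 (1.35), Ank3 (1.39), Crmp1 (1.13) and Dpysl3 (0.96). The last pair encode collapsin response mediator proteins, which bind tubulin. Of the same family, Dpysl4 fell (-1.23), and Dpysl2 (0.47, adjusted p = 0.174, edgeR) and Dpysl5 (1.37, adjusted p = 0.0537, edgeR) were not called. Nfasc, a cell adhesion gene of axons and of oligodendrocytes, fell (-1.70, SE 0.25, adjusted p = 0.00458, edgeR), as did Fez1 (-0.65, SE 0.11) and Marcks, a protein kinase C substrate of the membrane skeleton like GAP43 (-1.03, SE 0.17). Dpysl4 (-1.23) and Gpm6a (-0.73), also named after their values were seen, were lower too. The Nfasc, Marcks, Fez1 and Nrn1 calls held under all 14 other settings. Calls of Gprin1, Ank3, Crmp1 and Dpysl3 were not followed through all of these settings.

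Among 20 microtubule partners of the members, 1 rose and 3 fell (13.5% and 15.5% of all genes tested), and the median was -0.10. Map6, the stable tubule only protein, rose (1.17, SE 0.31, adjusted p = 0.0293, edgeR), and its call ended without WT 6, WT 7, KO 1 or KO 2 (lowest log2 fold change 0.96, highest adjusted p = 0.0945). Map7, a cofactor of kinesin-1, fell from 29.6 ± 8.43 to 6.25 ± 0.746 CPM (-2.24, SE 0.26, adjusted p = 0.00236, edgeR). The minus-end binding gene Camsap2 (-0.84, SE 0.12) and the plus-end gene Clasp2 (-0.57, SE 0.11) fell as well, and these 3 calls held under all 14 other settings. Without WT 3, 4 of the 20 were higher and 4 lower (20.2% and 18.1% of all genes).

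Among 13 neuronal RNA-binding proteins, 0 rose and 1 fell by edgeR (13.5% and 15.5% of all genes tested), with a median of 0.58. At an unadjusted p under 0.05, 7 were higher. No share over all genes was taken at that threshold, so this count cannot be read as a result about the list. With DESeq2 5 were higher (2877 of 19749 genes) and with limma-voom 8 (4133 of 16606). Without WT 3, 9 were higher and 1 lower (20.2% and 18.1% of all genes). The one that fell was Nova1, a splicing regulator of neurons (-1.31, SE 0.28, adjusted p = 0.0147, edgeR), a call that ended without WT 6 or KO 3 (highest adjusted p = 0.0548). A transcript on its strand, Gm33869, overlaps it with 15.6% of its mean count. Celf5 stood at 1.60 (SE 0.58, adjusted p = 0.0785), Celf6 at 1.89 (SE 0.65, adjusted p = 0.0673) and Nova2 at 0.58 (SE 0.20, adjusted p = 0.0646), by edgeR. Celf5 reached 2.60 and Celf6 3.12 without WT 3. Ptbp1, the splicing repressor that dividing progenitors use, rose from 96.9 ± 1.47 to 165 ± 7.76 CPM (0.76, SE 0.09, adjusted p = 0.00242, edgeR) and held under all 14 other settings. The gene Plppr3 on the other strand overlaps Ptbp1 with 96.2% of its mean count.

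Of 17 kinase genes and their activators that act on the members' proteins, 4 rose and 1 fell, with a median of 0.23. Over all genes tested, 13.5% were called higher and 15.5% lower. Without WT 3 the counts were 8 and 2 (20.2% and 18.1% of all genes). Mapk10, a Jun kinase of neurons, rose (1.32, SE 0.27, adjusted p = 0.0136, edgeR), as did the tau kinase gene Mark1 (0.76, SE 0.20), Prkce (1.60, SE 0.44) and Mapk8 (0.78, SE 0.22), the last named after its values were seen. Cdk5, which phosphorylates doublecortin and tau, fell slightly (-0.49, SE 0.11, adjusted p = 0.0169, edgeR). Calls of Mapk10, Mark1, Prkce and Cdk5 ended without WT 6 or without KO 2, and all but that of Cdk5 also without WT 7, with a highest adjusted p of 0.0561, 0.104, 0.109 and 0.0787 (edgeR). Prkce also lost its call without KO 1, and Mark1 without KO 1 or KO 3.

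**Figure D4:**
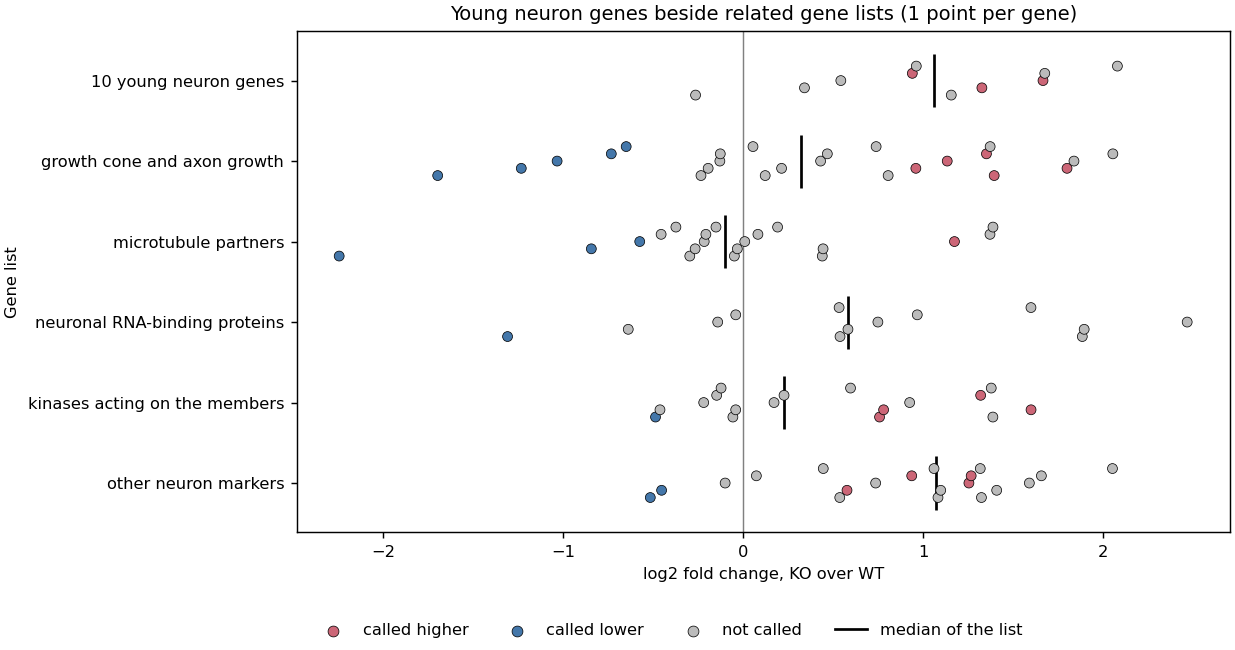
Log2 fold change of KO over WT for each tested gene of 6 lists (1 point per gene), coloured by whether it was called higher (red), lower (blue) or neither (grey), with a bar at each median. The medians of the 10 young neuron genes (1.06) and of the other neuron markers (1.07) lie to the right of those of the growth cone (0.32), microtubule (-0.10) and kinase (0.23) lists.

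Markers of neurons outside the 10 genes, taken in sum, also had WT 3 above WT 6 and WT 7. Of 20 such markers 4 rose and 2 fell (13.5% and 15.5% of all genes tested), with a median log2 fold change of 1.07. Without WT 3, 15 were higher and 1 lower (20.2% and 18.1% of all genes). The summed level of the 20 was 1035 FPKM in WT 3, 551 and 482 FPKM in WT 6 and WT 7 and between 1032 and 1505 FPKM in KO. The neuronal tubulin Tubb3 was at 438 CPM in WT 3, 167 CPM in WT 6 and 118 CPM in WT 7 and at 768 CPM in KO 1, 508 CPM in KO 2 and 641 CPM in KO 3, without being called (1.41, SE 0.47, adjusted p = 0.0636, edgeR). Tubb3 passed under 6 of 14 other settings, and its log2 fold change was 2.16 without WT 3 (adjusted p = 0.00075, edgeR). For 5 markers of glutamatergic neurons, 1 of which rose (3 with DESeq2 and 5 without WT 3), the sum was 92.7 FPKM in WT 3, 11 and 8.68 FPKM in WT 6 and WT 7, and 123 to 198 FPKM in KO. For 5 markers of GABAergic neurons, the sum was 4.17 to 7.80 FPKM in WT and 1.23 to 9.29 FPKM in KO. Of these 5, 0 passed in edgeR and 1 was lower with DESeq2 (2712 of 19749 genes). At an unadjusted p under 0.05, 1 was lower, for which no share over all genes was taken.

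Markers of other cell types differed between the libraries too, where 13.5% of all genes tested were called higher and 15.5% lower. Of 8 astrocyte markers 6 fell, with a sum of 569 FPKM in WT 3, 1594 and 1658 FPKM in WT 6 and WT 7, and 208 to 337 FPKM in KO. Of 11 oligodendrocyte lineage markers 7 fell (1155 to 1286 FPKM in WT, 481 to 884 FPKM in KO). Among 9 radial glia and progenitor markers 1 rose and 3 fell (1932 to 2391 FPKM in WT, 1630 to 2649 FPKM in KO), and of 4 intermediate progenitor markers that could be tested, of 5 listed, 2 fell (75.5 to 111 and 31.5 to 69.7 FPKM). Of 7 mural and meningeal markers 2 rose (3 with DESeq2, 1 without WT 3). They summed to 3.66 to 5.15 FPKM in WT and to 62 FPKM in KO 1, the library with the highest levels of 8 of the 10 young neuron genes, against 5.15 and 9.63 FPKM in KO 2 and KO 3. Endothelial markers (2 of 4 could be tested, and 1 fell) stayed at or under 0.75 FPKM in sum. Microglial markers (3 of 6 could be tested, of which 0 passed in edgeR and 0 at an unadjusted p under 0.05, and with DESeq2 1 of the 6 was higher) stayed at or under 9.82 FPKM, with the highest sum in KO 1. None of the listed markers was at 0 in every library. The part of these cell types in the levels of the 10 genes was not tested.

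The genes with the pattern most like the members' mean over the 6 libraries were sought among 11267 protein-coding genes outside the lists, by the mean absolute difference of centred log2 CPM. The 5 nearest were Sema7a (0.0644), Cabp1 (0.0751), Rac3 (0.0774), Ndrg4 (0.0801) and Prdm8 (0.0933). Sema7a, a membrane-anchored semaphorin, was at 35.8 CPM in WT 3, 15.7 CPM in WT 6 and 14.2 CPM in WT 7 and at 53.4 CPM in KO 1, 37.1 CPM in KO 2 and 47.4 CPM in KO 3. None of the 5 was called (adjusted p between 0.0614 and 0.116, edgeR). As the 5 were picked for their likeness to this pattern, the lack of a call is no separate result about them. Of the members themselves, Stmn1 and Mapt lay nearest to the mean (0.12 each) and Stmn2 (1.02) and Map2 (0.795) farthest from it.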

How the data were processed

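Messenger RNA levels were analysed in 6 libraries, grouped and numbered by their titles. The deposited table gives read counts per gene, not normalised by the authors, and FPKM values. The headers of the FPKM columns repeat the names of the count columns. These columns were taken as FPKM because their values follow from gene length and library total. Per the submitters' processing notes, the build was mm10 and the tools included featureCounts 1.5.0-p3, HISAT2 2.0.5 and DESeq2 1.16.1. For settings, strand use and annotation, the sources used here state nothing. For all 60 member values the FPKM gave back the count within 0.01%. Replicates all differed by more than counting noise (chi-square over degrees of freedom 17.8 or more).

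Counts were filtered by filterByExpr, scaled by TMM and tested across all genes with the quasi-likelihood F test of edgeR 4.0.16 (R 4.3.3, two-sided, Benjamini-Hochberg, threshold 0.05), without covariates. The SE is the absolute log2 fold change divided by the square root of F. Family shares used exact permutation tests. The code was tested on simulated data. Alternatives were RLE factors, library totals, no filter, 1 CPM in 3 libraries, limma-voom with quality weights (limma 3.58.1), DESeq2 1.42.0, limma on log2(FPKM + 1) and log2(FPKM + 0.1) with a mean FPKM of at least 0.5, and each library left out. Shares were also taken from raw counts.

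The 10 members and all lists (growth cone, microtubule partners, RNA-binding proteins, kinases and cell type markers) were chosen with earlier results of these data known. Named from each pathway list were the up to 4 genes with the lowest p, with Elavl1, Elavl2, Ptbp1, Tubb3 and Ash2l added by name. For likeness of pattern, log2 CPM had a prior count of 2, and genes needed a mean of 5 CPM. Promoter sequences are from RefSeq.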

Additional observations from a re-analysis of the deposited data

How the results depend on the processing

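All 140 log2 fold changes of the 10 genes, over 14 alternatives, kept their sign. Of these, 104 stayed on the same side of the threshold, 15 lost the call and 21 gained it, and every lost call belonged to Gap43, Stmn1 or Stmn3 with a library other than WT 3 left out. The number of members called higher was 3, against 4 with RLE factors, 5 with DESeq2, 5 on both log2(FPKM) scales, 7 without a filter and 8 with limma-voom. It stayed at 3 with library totals and with the filter of 1 CPM in 3 libraries. It was 0 to 8 with 1 library left out (0 without any library but WT 3). The number called lower was 0 throughout. Of all genes, 2240 of 16606 were called higher in the main fit, 2877 of 19749 with DESeq2 and 2615 of 32290 without a filter. With RLE factors and library totals 2335 and 2465 of 16606 were called higher, and with the 1 CPM filter 2171 of 15111. On log2(FPKM + 0.1) and log2(FPKM + 1) these were 2453 and 2500 of 15727, and with limma-voom 4133 of 16606. Of 76 pathway genes 12 were called higher, against 11 with library totals, 12 with the 1 CPM filter and 15 with RLE factors. The number was 25 with DESeq2, 19 on log2(FPKM + 0.1), 20 on log2(FPKM + 1), 35 with limma-voom and 28 without a filter. With 1 library left out it was 2 to 35. Called lower were 10 of the pathway genes, with 7 to 13 over all alternatives. Over all genes 2240 were called higher and 2572 lower, against 4133 and 3919 with limma-voom, and 1027 to 3500 higher and 1151 to 3141 lower with 1 library left out (1027 without WT 6, 3500 without WT 3). From raw counts, the KO minus WT difference in share was -6.31 points for Stmn1, against 0.84 from FPKM, and 12.2 points for Stmn2, against 4.73, since counts weight genes by length. The median log2 fold change of all genes was 0.16 with DESeq2 and 0.14 without a filter, both over more genes. Members lay at 19.4 CPM or more, where 3 reads were 0.142 to 0.173 CPM. No paired analysis was possible because the groups share only 1 replicate number.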
